A study of Mus musculus with 21 samples.

Results

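The transcripts described here encode secreted proteins of the seminal vesicle: Svs2, Svs4, Svs5, Svs6 and Pate4, the last also listed under the synonym Svs7. They were chosen by gene symbol in the platform annotation, 5 of 19057 symbols, and 7 of the 45259 probes of the array belong to them, with a pair of probes each for Svs2 and Svs6. All 5 genes passed the detection filter in both experiments. The arrays carried RNA labelled as prostate. The signal of these genes may therefore bear on how much seminal vesicle tissue each dissection held, and on their response to the loss of testicular androgen. How much of the signal came from seminal vesicle and how much from prostate was not tested. A bright signal is thus not by itself a measure of seminal vesicle tissue. The labels do not say which lobes were taken, whether the seminal vesicles were removed, or whether an array holds 1 animal or a pool, and p-values therefore reflect how far these samples vary, part of which may be technical.

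In rodents the seminal vesicle arises from the Wolffian duct and lies against the coagulating gland, the anterior lobe of the prostate, which arises from the urogenital sinus. Its epithelium secretes a few abundant proteins under androgen control. At ejaculation these are cross-linked by transglutaminase 4 (Tgm4), a product of the coagulating gland, into the copulatory plug, and some of them coat sperm.

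All males were of the FVB/N strain, 8 to 12 weeks old and heterozygous for a luciferase reporter driven by a thymidine kinase promoter with the androgen response elements Slp-HRE2. In the genistein experiment, surgically castrated males and intact males received under the skin, for 5 days, either 300 μg per day of the soy isoflavone genistein (10 μg/g body weight) or its vehicle, 0.1 ml of mineral oil with 2% dimethylsulfoxide. Injections of the castrated males began 4 days after surgery, and each of the 4 groups has 3 arrays. In the estradiol experiment, intact males received 0.25 μg per day of 17β-estradiol (10 μg/kg, 4 arrays) or 0.1 ml of mineral oil with 0.5% ethanol (5 arrays) for 4 days. Tissue was collected 24 hours after the last dose. All castrated arrays share a chip, and the intact arrays of that experiment another, which means that effects of castration and of the chip cannot be told apart.

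Within each experiment the arrays were alike in median intensity and in the share of probes detected. The median intensity was 99.4 to 109 on arrays of the genistein experiment, where 42.3% to 46.4% of probes were detected. For the estradiol arrays it was 145 to 171.9, with 44.2% to 47.0% detected. Vehicle array 1 of the estradiol experiment had the lowest mean correlation with its group, at 0.956. The other arrays of that experiment had 0.973 to 0.988. Markers of prostate secretory epithelium were present, with 5 of 5 tested genes (probasin Pbsn among them) detected on every array.

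Of the 5 genes, 4 are neighbours on mouse chromosome 2 within 98466 bases (GRCm38.p6): Svs2 at chr2:164235929-164238341, Svs4 at chr2:164275956-164278307, Svs6 at chr2:164316751-164318450 and Svs5 at chr2:164332765-164334394. Pate4 lies apart, at chr9:35607093-35611885. The 250 bases before the annotated start are shown for the 4 neighbours (RefSeq, GRCm38.p6), because 2 of them, Svs5 and Svs6, are nearly the same there while their signals on the arrays differed. Each is written 5′ to 3′ on the gene's own strand, with TGTTCT (the half-site of the androgen receptor's DNA element) and TATAAA (the TATA box), searched on both strands, in capitals.
Svs2, chr2:164238342-164238591, minus strand: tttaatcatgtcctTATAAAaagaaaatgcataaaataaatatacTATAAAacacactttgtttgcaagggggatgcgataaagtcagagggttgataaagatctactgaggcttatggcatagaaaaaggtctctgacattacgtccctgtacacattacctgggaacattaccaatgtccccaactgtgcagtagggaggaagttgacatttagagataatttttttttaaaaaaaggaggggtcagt
Svs4, chr2:164278308-164278557, minus strand: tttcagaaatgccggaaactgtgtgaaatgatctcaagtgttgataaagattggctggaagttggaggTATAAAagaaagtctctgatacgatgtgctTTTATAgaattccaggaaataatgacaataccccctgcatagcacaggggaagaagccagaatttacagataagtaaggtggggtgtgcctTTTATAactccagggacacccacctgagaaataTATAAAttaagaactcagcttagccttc
Svs6, chr2:164316501-164316750, plus strand: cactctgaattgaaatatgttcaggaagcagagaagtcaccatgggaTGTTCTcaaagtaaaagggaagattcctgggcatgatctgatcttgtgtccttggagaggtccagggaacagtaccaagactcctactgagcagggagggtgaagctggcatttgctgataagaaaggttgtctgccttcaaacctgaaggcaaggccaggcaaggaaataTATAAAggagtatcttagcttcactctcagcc
Svs5, chr2:164332515-164332764, plus strand: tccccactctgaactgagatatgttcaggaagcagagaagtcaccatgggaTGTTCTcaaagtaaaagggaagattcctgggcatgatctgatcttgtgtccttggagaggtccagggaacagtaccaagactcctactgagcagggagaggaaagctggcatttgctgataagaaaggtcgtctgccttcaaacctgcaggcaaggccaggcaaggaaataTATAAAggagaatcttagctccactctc

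The upstream sequences of Svs5 and Svs6 were identical at 237 of 254 aligned columns (93.3%, 9 mismatches and 8 gap columns), while the other pairs shared 44.7% to 57.4%. Both hold TGTTCT, at 199 to 194 bases before the start in Svs5 and at 203 to 198 in Svs6, a motif found in 16.1% of the 32851 promoters of the same length. Svs2 and Svs4 do not hold these letters in this window. The full palindromic androgen response element, the half-site as an inverted repeat around any 3 bases, was in 0 of the 4 and in 0.00913% of all promoters. TATAAA was in 4 of 4 and in 12.4% of all promoters, ending 23 bases before the start in Svs5 and Svs4 and 27 in Svs6, and no nearer than 200 in Svs2. These matches are a description of letters, not of binding. The probes' own sequences were not used here, so whether a probe for Svs5 also reads Svs6 was not tested.

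Svs2 encodes the main structural protein of the mouse copulatory plug, which also coats sperm. Its normalized signal, on the log2 scale used throughout, was 13.16, 13.39 and 13.44 on the 3 intact vehicle arrays of the genistein experiment and 13.54, 14.05 and 13.96 on the intact genistein arrays. After castration it was 11.77, 11.91 and 11.53 with vehicle, and 5.97, 11.17 and 4.65 with genistein, the last not detected. The 4 groups thus lay in the order intact genistein, intact vehicle, castrated vehicle, castrated genistein, with no overlap between neighbours. The castrated genistein group alone was spread widely: arrays 1 and 3 were near the background and array 2 was just under the castrated vehicle arrays. Normalized separately, the estradiol experiment had Svs2 at 14.77, 12.14, 13.37, 14.13 and 13.36 with vehicle and 13.72, 14.21, 11.25 and 13.93 with estradiol, and the groups overlapped.

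Svs5 encodes a small secreted protein from the same gene cluster. It read 14.65, 14.57 and 14.80 on intact vehicle arrays and 14.50, 14.68 and 14.59 on intact genistein arrays, groups that overlapped. The castrated vehicle arrays, at 13.81, 14.34 and 13.87, all lay below the intact ones. The castrated genistein arrays were at 9.10, 13.45 and 6.86, again low on arrays 1 and 3. On the vehicle arrays of the estradiol experiment it was at 14.99, 14.88, 14.55, 14.70 and 14.75 and on the estradiol arrays at 14.99, 14.79, 14.68 and 14.65, with overlap.

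Svs4 encodes a small basic protein which in the rat has anti-inflammatory activity. Its levels were 15.24, 14.30 and 15.09 on intact vehicle arrays and 14.99, 14.84 and 14.84 on intact genistein arrays. Castrated vehicle arrays read 12.97, 15.31 and 12.93, so that array 2 stood above every intact array and the other two below them. Castrated genistein arrays read 9.48, 12.96 and 7.78. Every neighbouring pair of groups overlapped. Svs4 in the estradiol experiment was at 14.90, 14.89, 14.71, 14.88 and 14.37 with vehicle and 15.05, 14.69, 15.07 and 14.77 with estradiol, which overlapped too.

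Pate4 encodes a small secreted protein of the PATE family that binds sperm. It read 14.76, 14.70 and 14.85 on intact vehicle arrays, 14.93, 15.17 and 15.21 on intact genistein arrays and 15.15, 15.14 and 14.96 on castrated vehicle arrays. The castrated vehicle arrays all lay above the intact vehicle arrays. Over the experiment the probe reached up to 97.0% of the intensity of an array's brightest probe, and its response to a change at that level was not tested. On the castrated genistein arrays it was at 11.57, 15.06 and 9.50, with array 2 among the highest values and arrays 1 and 3 far below. The 5 vehicle arrays of the estradiol experiment were at 14.85, 14.69, 14.76, 14.65 and 14.77, and all 4 estradiol arrays, at 14.61, 14.49, 14.03 and 14.51, lay below them.

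Svs6 lies next to Svs5 in the cluster and belongs to the same secretory family. It varied widely within each vehicle group of the genistein experiment, where Svs2, Svs5 and Pate4 varied little. Its brighter probe read 11.29, 6.25 and 8.61 on intact vehicle arrays and 8.33, 6.39 and 6.60 on intact genistein arrays. On castrated vehicle arrays it was 5.15, 9.53 and 4.79, the last not detected, and on the castrated genistein arrays 4.73, 4.73 and 4.78, none detected. Intact males under the same treatment thus differed by up to 5.04 log2 units, and neighbouring groups overlapped except for the castrated ones, where the lowest vehicle array and the highest genistein array were both undetected. Outside the castrated genistein group, Svs4 was highest on the same array of each group as Svs6. These were castrated vehicle array 2 (Svs4 at 15.31), intact vehicle array 1 (15.24) and intact genistein array 1 (14.99). Svs6 in the estradiol experiment read 13.21, 13.18, 12.15, 11.62 and 7.74 with vehicle and 10.40, 13.57, 11.28 and 13.25 with estradiol, with overlap.

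The second probes of Svs2 and Svs6 followed the first ones over arrays, with some differences in size. That of Svs2 read 11.31, 11.85 and 12.01 on intact vehicle arrays and 11.97, 12.53 and 13.07 on intact genistein arrays. On castrated vehicle arrays it was at 8.33, 8.37 and 7.48, and on castrated genistein arrays at 4.54, 8.29 and 4.76, detected on array 2 alone, which here lay within the castrated vehicle range. In the estradiol experiment it ran from 10.54 to 14.37 with vehicle and from 9.61 to 13.70 with estradiol, lowest on the same arrays as the first probe. The second Svs6 probe was detected on 1 of 12 arrays of the genistein experiment, intact vehicle array 1 at 6.52, where the first probe was highest. It was detected on 7 of 9 estradiol experiment arrays, from 5.61 to 10.28 where detected.

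**Figure D1:**
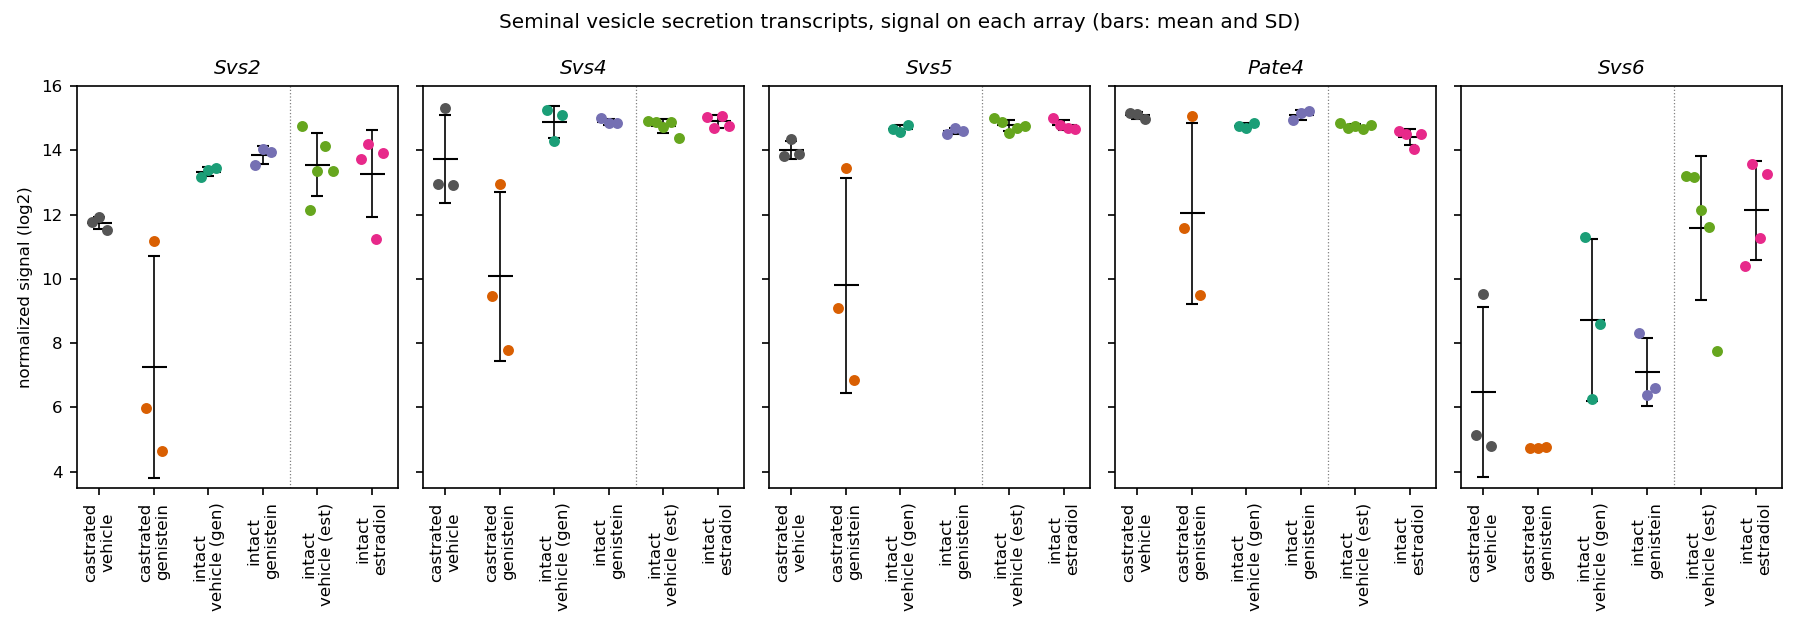
Normalized log2 signal (y axis) of each gene on each array (points) in the 6 groups (x axis, gen for the genistein and est for the estradiol experiment), with the mean and SD of each group as bars; the dotted line parts the experiments, which were normalized separately. In castrated males given genistein, Svs2, Svs4, Svs5 and Pate4 were low on 2 arrays and higher on 1, whereas Svs6 varied most among intact males and on 1 castrated vehicle array.

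Several of these probes were bright beside the brightest probe of their array. How near they came to the scanner's upper limit was not tested. Over the 12 arrays of the genistein experiment, Pate4 exceeded 50% of the intensity of the array's brightest probe on 10, Svs4 on 6 and Svs5 on 6. In the estradiol experiment Svs4 and Svs5 did so on 9 of 9 arrays and Pate4 on 8. Svs2 reached at most 46.1% and 56.4%, and Svs6 at most 6.28% and 36.1%.

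Castration in vehicle-treated males asked how far these genes depend on the testes. The log2 change was -1.60 for Svs2 (SE 1.17, adjusted p = 0.362), -0.67 for Svs5 (SE 1.13, adjusted p = 0.718), -1.14 for Svs4 (SE 1.02, adjusted p = 0.461) and -2.23 for Svs6 (SE 1.28, adjusted p = 0.244). That of Pate4 was 0.31 (SE 0.95, adjusted p = 0.846). With limma and Benjamini-Hochberg adjustment, 0 of 5 genes passed the threshold of 0.05, against 21.2% of all 15406 genes called. At an unadjusted p under 0.05 there were 0 of 5, against 5343 of all genes. Groups did not overlap for 3 of 5 (Svs2 and Svs5 lower, Pate4 higher in castrated males), against 39.5% of all genes. The median change was -1.14, beside 0.04 over all genes tested.

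These standard errors rest on all 12 arrays, so the wide castrated genistein group enters those of Svs2, Svs4, Svs5 and Pate4. With only the 6 arrays compared in the fit, 2 of 5 genes fell, Svs2 (SE 0.15, adjusted p = 0.000602) and Svs5 (SE 0.17, adjusted p = 0.0300), with the changes themselves unaltered, while 2979 of all genes were called in that fit. The value for Svs6 rested on single arrays: leaving out 1 array moved it from -3.75 (SE 1.09, adjusted p = 0.0396) without castrated vehicle array 2, where it passed and 2455 of all genes did, to -0.94 (adjusted p = 0.641) without intact vehicle array 1. It was -3.46 without intact vehicle array 2 and -1.56 and -1.38 without castrated vehicle arrays 1 and 3, and did not pass in these. The second Svs2 probe, tested in a fit of all kept probes, fell by 3.66 (SE 0.75, adjusted p = 0.00560), from 11.72 ± 0.37 to 8.06 ± 0.50 (SD, n = 3 each), so the probes of Svs2 disagree in size and call. As these are bulk samples, fewer cells of a type and less RNA per cell cannot be told apart.

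Castration in genistein-treated males gave larger differences. Svs2 fell by 6.59 (SE 1.17, adjusted p = 0.00246), from 13.85 ± 0.27 to 7.26 ± 3.45 (SD, n = 3 each), and its second probe fell by 6.66 (adjusted p = 0.000134 in the fit of all probes). Svs4 fell by 4.82 (SE 1.02, adjusted p = 0.00608), Svs5 fell by 4.79 (SE 1.13, adjusted p = 0.0112) and Pate4 fell by 3.07 (SE 0.95, adjusted p = 0.0381). Svs6, undetected on every castrated genistein array, was at least 4.69-fold lower (adjusted p = 0.212); this bound sets the intact mean against the lowest detected signal of each castrated array or the probe's own signal, whichever was higher. Thus 4 of 5 genes fell, against 22.1% of all genes called in either direction, and groups did not overlap for 4 of 5 (all but Pate4), against 38.4% of all genes.

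These falls rest in part on castrated genistein arrays 1 and 3. Without them, with the lone array 2 assumed to vary like the other groups, 839 of all genes were called and 2 of the 5 still fell, with changes of -2.68 for Svs2 (SE 0.24, adjusted p = 0.000340) and -1.14 for Svs5 (SE 0.22, adjusted p = 0.0198). Svs4 then had a change of -1.93 (adjusted p = 0.178) and Pate4 of -0.05 (adjusted p = 0.907). The call for Pate4 was also lost with no filter, with the authors' processed values and in 5 of the 6 fits that left out 1 array. With only the 6 arrays compared, a fit that called 2594 of all genes, Svs6 was called lower (adjusted p = 0.0141) while Svs5 (adjusted p = 0.0521) and Pate4 (adjusted p = 0.112) did not pass.

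Genistein in castrated males was compared within chip 1. The log2 changes were -4.47 for Svs2 (SE 1.17, adjusted p = 0.249), -4.20 for Svs5 (SE 1.13, adjusted p = 0.269), -3.66 for Svs4 (SE 1.02, adjusted p = 0.286) and -3.04 for Pate4 (SE 0.95, adjusted p = 0.336). Svs6 was at least 3.06-fold lower (adjusted p = 0.724), a value set by castrated vehicle array 2. With limma 0 of 5 genes passed, as did 0% of all genes (0 of 15406), while 4 of the 5 and 1459 of all genes had an unadjusted p under 0.05. Groups did not overlap for 3 of 5 (Svs2, Svs5 and Svs6, the last between undetected values), against 17.5% of all genes. The median change of the 5 was -3.66, beside 0.00 over all genes.

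Single arrays set this comparison. Leaving out castrated genistein array 2, 144 of all genes were called and 4 of the 5 fell, with changes of -6.43 for Svs2 (adjusted p = 2.84e-06), -6.02 for Svs5 (adjusted p = 6.94e-05), -5.10 for Svs4 (adjusted p = 0.00335) and -4.55 for Pate4 (adjusted p = 0.000317). Leaving out arrays 1 and 3 instead, the changes were -0.57, -0.56, -0.78 and -0.03, each with an adjusted p of 1.00. The labels put the 3 arrays in 1 group, and nothing in them sets array 2 apart.

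Other genes on the same arrays were compared to see what moved with arrays 1 and 3. The summed normalized signal of the 5 genes was 4391 on castrated genistein array 1, 55576 on array 2 and 1112 on array 3, beside 57756 to 102001 on the castrated vehicle arrays. The 5 tested markers of prostate secretory epithelium, all detected, summed to 16013, 11513 and 17330 on the same 3 castrated genistein arrays, inside or near the castrated vehicle range of 11732 to 20635, and were thus not lower on arrays 1 and 3. Of the epididymis and vas deferens markers, 3 of 15 on the array passed the detection filter, with sums of 199.6 to 208.0, beside 161.4 to 201.1 with vehicle. Wolffian duct lineage factors, with 7 of 10 tested, summed to 761.6 to 1168, beside 1028 to 1129 with vehicle. Sums were higher with genistein for urothelium (7417 to 10030 over 7 of 7 genes, beside 4984 to 7294) and overlapped for skeletal muscle (116621 to 167309 over 10 of 10, beside 105227 to 119667). They were lower for luminal epithelium, at 15591, 20482 and 17034 on the 3 castrated genistein arrays over 6 of 7 genes, beside 21143 to 21947 with vehicle, and lowest on arrays 1 and 3. The summed Pate family, with 3 of 5 genes tested, was lower too, at 3462, 4547 and 3272, beside 4947 to 10888. This sum includes Pate6, with a log2 change of -4.12 under genistein, while Pate9 and Pate14 changed by -0.51 and -0.63. For each of these genes taken singly, the genistein and vehicle arrays overlapped. Adipocyte genes were higher on arrays 1 and 3, at 13528 and 13357 over 6 of 7 genes, than on array 2, at 8528, and with vehicle, at 7798 to 9958. Overlap with the vehicle range was seen for smooth muscle, basal epithelium, plug and protease genes and prostate lineage factors. The part of other tissues in the result was not tested.

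Genistein in intact males was compared within chip 2, and no difference passed the test. The log2 changes were 0.52 for Svs2 (95% interval -2.04 to 3.07, adjusted p = 0.952), 0.34 for Pate4 (-1.74 to 2.41, adjusted p = 0.965), 0.01 for Svs4 (-2.21 to 2.23, adjusted p = 0.999) and -0.08 for Svs5 (-2.56 to 2.39, adjusted p = 0.995). That of Svs6 was -1.61 (-4.41 to 1.19, adjusted p = 0.811), and leaving out 1 array moved it from -2.84 without intact vehicle array 2 to -0.32 without intact vehicle array 1. None of the 5 passed in limma (0 of 5, also at an unadjusted p under 0.05), beside 0.00649% of all genes. Groups did not overlap for 2 of 5, Svs2 and Pate4, both higher with genistein, against 10.7% of all genes. The intervals are wide and allow a change of over 1 log2 unit in either direction for each gene. They rest on 1 spread per gene shared by all groups of the experiment. The wide castrated genistein group thus enters those of Svs2, Svs4, Svs5 and Pate4. In intact males the SD with vehicle and with genistein was 0.15 and 0.27 for Svs2 and 0.51 and 0.09 for Svs4. It was 0.12 and 0.09 for Svs5, 0.08 and 0.15 for Pate4 and 2.52 and 1.06 for Svs6. The widths for Svs2, Svs4, Svs5 and Pate4 thus do not describe the intact arrays alone.

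The response to genistein in castrated males minus that in intact males was -4.99 for Svs2 (SE 1.65, adjusted p = 0.588), -4.12 for Svs5 (SE 1.60, adjusted p = 0.630), -3.68 for Svs4 (SE 1.44, adjusted p = 0.631) and -3.38 for Pate4 (SE 1.35, adjusted p = 0.633). For Svs6, undetected on all castrated genistein arrays, no size is given (adjusted p = 0.994). Again 0 of 5 passed in limma, as did 0% of all genes, although 4 of the 5 and 1122 of all genes had an unadjusted p under 0.05. Without castrated genistein array 2, 79 of all genes passed and 4 of the 5 did, with Svs2 at -6.94 (adjusted p = 2.60e-05) and Svs4 at -5.12 (adjusted p = 0.0331). Without arrays 1 and 3, Svs2 was at -1.08 and Svs5 at -0.47 (adjusted p = 1.00 for each).

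Estradiol in intact males gave differences smaller than the spread between arrays for 4 of the 5 genes. The log2 changes were -0.28 for Svs2 (95% interval -1.70 to 1.15), 0.14 for Svs4 (-0.18 to 0.47), 0.01 for Svs5 (-0.28 to 0.29) and 0.55 for Svs6 (-1.86 to 2.95), and the adjusted p over the 5 genes ran from 0.687 to 0.998. Pate4 was at -0.33 (SE 0.14, unadjusted p = 0.0317, adjusted p = 0.687), lower on 4 of 4 estradiol arrays. In limma 0 of 5 genes passed, as did 0% of all 15088 genes, with 1 of the 5 and 1044 of all genes at an unadjusted p under 0.05. Groups did not overlap for 1 of 5, against 2.82% of all genes. Within chip 3 alone, which holds all estradiol arrays and vehicle arrays 1 and 2, the changes were -0.18 for Svs2, 0.00 for Svs4, -0.15 for Svs5, -1.07 for Svs6 and -0.36 for Pate4. The direction for Svs6 also turned, to -0.41, without vehicle array 5.

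**Figure D2:**
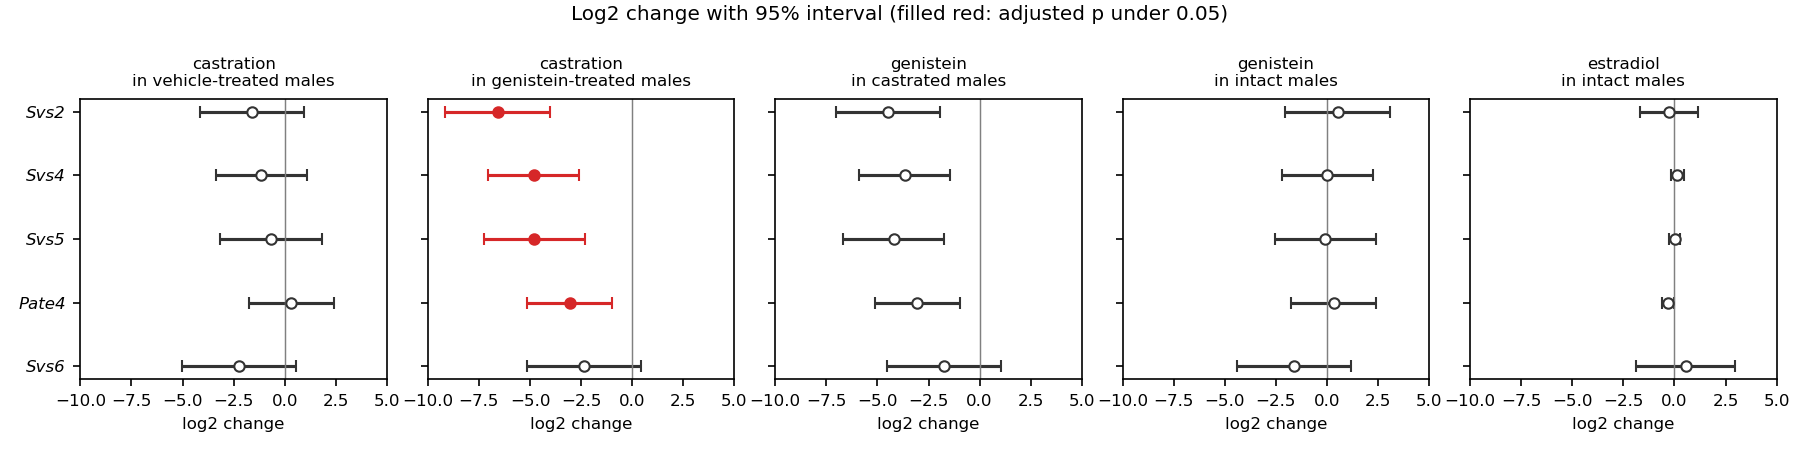
Log2 change (x axis, first-named condition against its control) of each gene (y axis) in the 5 comparisons, with 95% intervals; filled red points have an adjusted p under 0.05. Only castration in genistein-treated males shows such points, for Svs2, Svs4, Svs5 and Pate4, and the intervals of the genistein experiment share 1 spread per gene over its 4 groups.

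Spread within groups divided the genes. The SD of Svs2, Svs5, Svs4 and Pate4 in castrated genistein males was 3.45, 3.35, 2.64 and 2.81, where the median gene had 0.17, while Svs2, Svs5 and Pate4 had an SD of 0.08 to 0.29 in the other 3 groups of the experiment. Svs6 had an SD of 2.52 in intact vehicle males and 2.64 in castrated vehicle males, where the median gene had 0.19 and 0.16. In the estradiol experiment its SD was 2.25 with vehicle and 1.53 with estradiol, and that of Svs2 was 0.98 and 1.36.

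After subtracting each group's mean, Svs2, Svs5 and Pate4 correlated with each other at r = 0.98 to 1.00 over the 12 arrays of the genistein experiment, and Svs4 with them at 0.88 to 0.91. Svs6 correlated with Svs2, Svs5 and Pate4 at -0.02 to 0.05 and with Svs4 at 0.42. These values describe 12 arrays that share chips and dissections. The castrated genistein group, with array 2 far above arrays 1 and 3, carries most of the variation behind the high ones. In the estradiol experiment Svs2 and Pate4 had r = 0.79 over 9 arrays, and the other pairs -0.30 to 0.45. Svs5 and Svs6, with nearly the same upstream sequence, printed above, had r = 0.05 and 0.03 in the 2 experiments. Svs6 was undetected on the castrated genistein arrays, where Svs5 varied most. In the estradiol experiment Svs5 varied little, with an SD of 0.17 with vehicle and 0.16 with estradiol. These values of r therefore cannot show whether genes with this upstream sequence vary together.

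The genes most like Svs2, a list drawn up after its values were seen, were the sterol transporter partners Abcg5 (r = 1.00) and Abcg8 (0.98), the PATE family gene Pate6 (1.00), the amino acid oxidase Il4i1 (0.98) and Cd52 (0.98), which encodes a surface glycoprotein of lymphocytes and of epididymal epithelium. Pate6 read 11.24, 11.33 and 11.16 on castrated vehicle arrays and 5.77, 11.22 and 4.38 on castrated genistein arrays, and was undetected on all 6 intact arrays of the experiment. Cd52 read 14.96, 14.90 and 14.84 and then 10.17, 14.21 and 9.83, so both were low on the same arrays as Svs2. Unlike Svs2, both were higher in castrated than in intact vehicle males. For the mean of the 5 genes, the most similar were Galnt9 (a glycosyltransferase, r = 0.94), Fkbp11 (a folding enzyme of the endoplasmic reticulum, 0.94), the iodide transporter Slc5a5 (0.93), Dkkl1 (0.93) and Tead2 (a transcription factor, 0.92) over 12 arrays. In the estradiol experiment they were Tshz1 (0.96), Unc5b (a netrin receptor, 0.95), D10Wsu102e (0.94), Toe1 (0.94) and 2610301B20Rik (0.93) over 9 arrays.

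Svs6 followed other secretory genes of the seminal vesicle. Of 10 symbols listed for such genes, 6 are on the array. Semg1, among the 10, is also a synonym of Svs2 and of Svs5. Svs1, which encodes a protein of the copper amine oxidase family, read 12.60, 4.60 and 10.16 on intact vehicle arrays of the genistein experiment and 9.06, 5.00 and 5.82 on intact genistein arrays, high where Svs6 was high. It was detected on 1 castrated vehicle array, array 2 at 5.08, and on 0 castrated genistein arrays. Ceacam10, a secreted protein of the seminal vesicle that binds sperm, read 8.35, 5.53 and 7.09 with vehicle and 5.69, 4.79 and 5.01 with genistein in intact males, and 4.35, 5.57 and 4.39 in castrated vehicle males. Its r with Svs6 was 0.93 over 12 arrays, and that of Svs1 was 0.75.

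The likeness extended to more genes in the estradiol experiment. Svs1 read 14.66, 13.60, 12.29, 12.02 and 8.07 on the vehicle arrays and 10.65, 14.10, 11.11 and 13.64 on the estradiol arrays. Its r with Svs6 was 0.98 over 9 arrays, that of the seminal vesicle autoantigen Sva 0.96, that of Svs3a 0.94 and those of Svs3b and Ceacam10 0.93. None of these 5 genes had an r above 0.42 with Svs2, Svs4, Svs5 or Pate4. Svs2, Svs4, Svs5, Svs6 and Pate4 thus did not vary as 1 set over these arrays. Their mean is not used here as a measure of seminal vesicle tissue. The low r of Svs6 has a limit, as Svs6 was undetected on the castrated genistein arrays, where Svs2, Svs4, Svs5 and Pate4 varied most. In the estradiol experiment Svs4, Svs5 and Pate4 varied little, with an SD of 0.08 to 0.26. Their probes were bright there, over 50% of the brightest probe on 9, 9 and 8 of 9 arrays. Whether such brightness narrowed their spread was not tested. Svs2 did vary in the estradiol experiment, and had r = 0.21 with Svs6. Whether Svs6 moves apart from Svs4, Svs5 and Pate4 is not settled by these values.

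**Figure D3:**
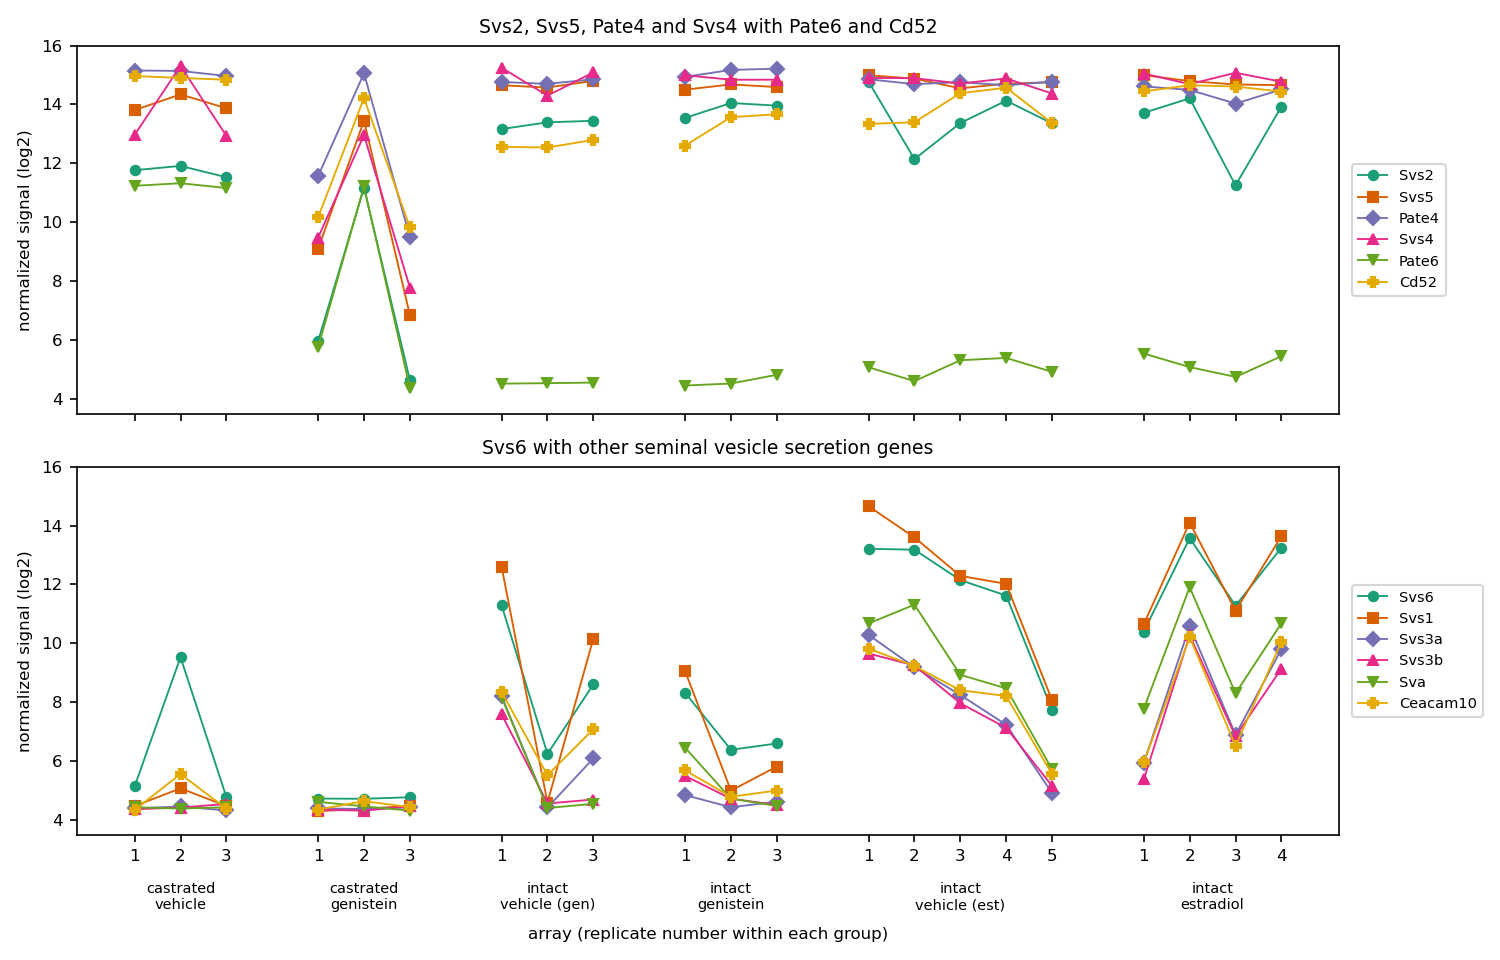
Normalized log2 signal (y axis) on each of the 21 arrays (x axis, by group; gen and est name the experiment). Lines only join arrays of a group, which have no order, and the experiments were normalized separately. Upper panel: Svs2, Svs5, Pate4, Svs4, Pate6 and Cd52 were low together on castrated genistein arrays 1 and 3; lower panel: Svs6, Svs1, Svs3a, Svs3b, Sva and Ceacam10 varied together among intact arrays, with values near 4.5 not detected.

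The related genes gave the following counts in limma, over all genes tested. Beside them, castration called 21.2% of all genes with vehicle and 22.1% with genistein. Of the other seminal vesicle genes, 2 of 6 passed the detection filter in the genistein experiment. After castration with vehicle Ceacam10 fell by 2.22 (SE 0.56, adjusted p = 0.0157), while Svs1 had a change of -4.44 (SE 1.56, adjusted p = 0.0638). Castration with genistein called 0 of 2; both were undetected in castrated males, Svs1 at least 3.36-fold lower (adjusted p = 0.336) and Ceacam10 at least 1.22-fold lower (adjusted p = 0.419). Genistein in intact males called 0 of 2, with Svs1 at -2.49 (SE 1.56, adjusted p = 0.756) and Ceacam10 at -1.82 (SE 0.56, adjusted p = 0.614), and estradiol called 0 of 5, with Sva at 0.64 and Svs3a at 0.33.

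Of the Pate family, 3 of 5 genes on the array were tested. After castration with vehicle Pate6, undetected in intact males, was at least 74.8-fold higher (adjusted p = 0.00274), while Pate9 fell by 2.74 (SE 0.36, adjusted p = 0.000372) and Pate14 fell by 1.95 (SE 0.41, adjusted p = 0.00645). With genistein Pate9 fell by 2.91 and Pate14 fell by 2.23, while Pate6 did not pass. Genistein and estradiol called 0 of 3. Pate4 thus differed from Pate9 and Pate14 in its values after castration with vehicle, a difference that was not tested.

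Genes of plug cross-linking and secreted proteases fell in 5 of 6 cases under castration with either treatment. With vehicle the kallikrein Klk1b24, undetected in castrated males, was at least 6.59-fold lower (adjusted p = 4.72e-06), and Klk1b27 fell by 2.95 (SE 0.40, adjusted p = 0.000490). Markers of prostate secretory epithelium fell in 5 of 5 cases in both, with median changes of -3.75 and -3.41, and with vehicle the changes of the trypsin inhibitor Spink1 and of Pbsn were -5.43 (SE 0.55) and -4.64 (SE 0.31). Under genistein in castrated males their median change was -0.07, with 0 of 5 called. Wolffian duct lineage factors gave 1 rise of 7 with vehicle, the homeobox gene Hoxd9 by 1.17 (SE 0.28, adjusted p = 0.0111), and 0 of 7 with genistein. Prostate lineage factors gave 3 falls of 6 with vehicle, Foxa1 at -1.03, Hoxb13, undetected in castrated males, at least 1.38-fold lower, and Sox9 at -0.50, and 1 of 6, Foxa1 at -0.77, with genistein. These counts of few genes stand beside 21.2% of all genes called with vehicle and 22.1% with genistein.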

How the data were processed

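Prostate RNA of 21 samples was measured on Illumina mouse bead arrays. The deposited tables give each probe's average intensity on every array, with its detection p-value. Intensity values are linear and not normalized between arrays, as the deposited values show. BeadStudio appears, without a version, among the tools of the submitters' processing notes; the computation of the p-values is not stated in the labels. A further deposited table holds the authors' processed intensity values, background-subtracted and brought to a common distribution per the values, used as an alternative; its method is not stated in the labels, and its rank correlation with the unprocessed values of each array was at least 0.999996.

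In R 4.3.3 with limma 3.58.1, neqc was run within each experiment (normexp background from the detection p-values, offset 16, quantile, log2). A probe was kept where its detection p-value was below 0.05 on 3 or more arrays (22332 and 21835 probes). Symbols came from the platform annotation, with 1 symbol for 34872 probes, several for 18 and none for 10369. The brightest kept probe stood for a gene, which left 15406 and 15088 genes. Tests were limma's lmFit and eBayes, two-sided, with Benjamini-Hochberg adjustment over all genes; the 12 arrays of the genistein experiment shared 1 fit and the 9 of the estradiol experiment another. The fits were tested on simulated data.

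All 5 genes are named in every comparison. Of each related list, at most the 3 called genes with the largest change are named, or the 2 largest where none was called; likeness is Pearson's r after subtracting group means, 5 genes at most. The members and lists were chosen with earlier results of these data known. Alternatives covered background, normalization, filter, probes, arrays, chip and replicate number. Replicate numbers did not pair the samples (r of deviations -0.28 to 0.34). Precision is limited by the number of arrays. Upstream sequences are RefSeq's for GRCm38.p6, aligned with Biopython 1.88; 4 of 5 members matched.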

Additional observations from a re-analysis of the deposited data

Results flagged for a closer look

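Svs2 on intact estradiol array 3 read 11.25, far below the other 3 arrays of its group at 13.72 to 14.21; the second Svs2 probe read 9.61 there and 13.33 to 13.70 on the others. For the first probe the gap was 0.83 of the group's range, and how often such a gap arises by chance was not tested. Without this array the change of Svs2 under estradiol was 0.40 in place of -0.28. The response of Svs2 to genistein in castrated minus intact males was -4.99 on the first probe. There, all 3 castrated genistein arrays lay below every castrated vehicle array, and all 3 intact genistein arrays above every intact vehicle array. The limma interaction gave an adjusted p of 0.588, so the difference did not pass the threshold. On the second probe the groups overlapped in both cases. Castrated genistein array 2 read 8.29, within the castrated vehicle range of 7.48 to 8.37. Intact genistein array 1 read 11.97, below intact vehicle array 3 at 12.01. The limma interaction of the second probe was smaller and did not pass either (adjusted p = 0.622 in the fit of all probes).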

How the results depend on the processing

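Over 30 results and 480 alternative values, 437 kept their direction and side of the threshold. The count of the 5 genes called under castration with vehicle was 0, and 2 with only the arrays compared; leaving out 1 array gave 0 to 1. Under castration with genistein it was 4, and 2 without castrated genistein arrays 1 and 3 together, an alternative chosen with earlier results known; leaving out 1 array gave 3 to 4. For genistein in castrated males and for its difference between castrated and intact males it was 0, and 0 to 4 on leaving out 1 array, the 4 without castrated genistein array 2. For genistein in intact males and for estradiol it was 0 in every alternative run. Over all genes the count under castration with genistein was 3401, and 839 without arrays 1 and 3 (2216 to 3358 leaving out 1 array), under castration with vehicle 3259 (2037 to 2898), for genistein in castrated males 0 (0 to 144), for the difference 0 (0 to 79) and for genistein in intact males 1 (0 to 19). A fit with a replicate block left the calls for all 5 genes as they were in every comparison; for estradiol, where vehicle array 5 has no partner and drops out, it turned Svs5 to -0.00016 and Svs6 to -0.41. Other turns of direction, none in a called value, were, for estradiol, Svs5 at -0.048 with median scaling, -0.15 on chip 3 alone, -0.036 with chip as a random block and -0.067 to 0.060 leaving out 1 array; Svs6 at -1.07 on chip 3 alone and -0.41 to 1.12 leaving out 1 array; and Svs2 at -0.63 to 0.40 leaving out 1 array. For genistein in intact males they were Svs5 at 0.011 with median scaling and Svs4 at -0.28 to 0.20 leaving out 1 array. For the difference, Svs6, undetected in castrated genistein males, was at 0.30 without background correction and -1.42 to 1.39 leaving out 1 array. The cause was not tested. Signal over background limits Svs6, undetected in 4 of 6 castrated samples.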

Other observations

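The genes whose signal was most like that of Svs2 in the estradiol experiment, a list drawn up after the values were seen, were the tryptophan-degrading enzyme Ido1 and the cytochrome P450 Cyp4a12a (both r = 0.98 over 9 arrays after subtracting group means), then Adap1 and Unc79 (both 0.98) and Sh3rf1 (0.97). These differ from the genes most like Svs2 in the genistein experiment. Pate4 and the plug transglutaminase Tgm4 had r = 0.93 in the estradiol experiment and -0.08 over the 12 arrays of the genistein experiment. These values describe arrays that share chips and carry no test.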
